A study of Mus musculus with 18 samples.

Results

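The UDP-glucuronosyltransferases and sulfotransferases of mouse liver are described here across 3 mouse strains, each given asparaginase or vehicle. Members were all genes whose symbol in the deposited expression table begins with Ugt1a, Ugt2a, Ugt2b, Ugt3a or Sult followed by a number and whose estimate had the status OK in all 6 groups. The pattern found 37 of the 37303 genes of the table, and all 37 had that status. They comprised 20 UDP-glucuronosyltransferases and 17 sulfotransferases. In at least 1 group 28 members exceeded an FPKM (a read density scaled to transcript length and library size) of 1, and 26 exceeded 3. The member just inside the limit of 1 was Ugt1a10, with a highest value of 1.28 FPKM. Just outside it were Sult2b1, with a highest value of 0.644 FPKM, and Sult2a3, with 0.638 FPKM.

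Poly-A RNA of liver was sequenced from 18 mice of the C57BL/6J background, 3 in each of 6 groups. WT mice carried both genes intact, Gcn2-/- mice had a homozygous deletion of Gcn2 in the whole body, and Atf4-/- mice had a homozygous deletion of Atf4 in the whole body. Mice of each strain, females and males aged 8 to 16 weeks by the labels, received 8 daily intraperitoneal injections, either of ASNase (asparaginase, an enzyme that depletes asparagine and glutamine in blood) at 3 IU per gram body weight or of PBS (phosphate buffered saline). GCN2 is a kinase that senses uncharged tRNA during amino acid shortage, and ATF4 is a transcription factor translated in response. The table gives 1 value per gene and group, estimated over the 3 mice together, and no value of a single mouse. No test over mice was therefore possible, and no difference below has a replicate check.

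Conjugation makes small lipophilic molecules soluble enough to leave the body. UDP-glucuronosyltransferases sit in the membrane of the endoplasmic reticulum and attach a sugar, usually glucuronic acid from UDP-glucuronic acid, to bilirubin, steroids, bile acids and drugs. Cytosolic sulfotransferases attach sulfate from PAPS (3′-phosphoadenosine-5′-phosphosulfate) to phenols, estrogens, hydroxysteroids, bile acids and amines. In mouse liver several members of both families differ between the sexes under the pattern of growth hormone release, and others respond to xenobiotic receptors.

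The Ugt1a genes of chromosome 1 are alternative starts of 1 locus: each gene has a first coding exon of its own, though the transcript taken for Ugt1a7c began with that of Ugt1a6a, and all 9 then use the same later exons. In GENCODE M21 (build GRCm38) the transcripts used here had 849 to 870 coding bases of their own and the same 735 coding bases downstream. The following 60 bases cross from the own exon, in lower case, into the first 30 shared bases, in capitals. They are shown because a read that stays within the capitals and beyond fits all 9 genes.
Ugt1a1: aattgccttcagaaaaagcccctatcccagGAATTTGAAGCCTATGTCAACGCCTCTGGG
Ugt1a5: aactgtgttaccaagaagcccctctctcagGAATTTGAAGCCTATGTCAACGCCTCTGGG
Ugt1a6a: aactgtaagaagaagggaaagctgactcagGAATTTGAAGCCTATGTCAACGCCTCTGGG
Ugt1a9: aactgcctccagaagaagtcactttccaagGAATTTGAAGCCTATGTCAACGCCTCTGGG
The capitals are identical in all 4 genes. Windows of 100 bases, the length of a read, were taken from every annotated transcript of each Ugt1a gene. Of these, 50.4% to 70.9% per gene also occurred in a transcript of another gene. The authors' estimate treated the 9 genes as part of a single locus of 164615 bases and 19 genes. On the opposite strand the exons of Ugt1a genes overlapped those of Gm20528 by 394 to 922 bases, and those of Sult1a1 overlapped Sgf29 by 61 bases. Reads of the shared exons were divided between the genes by the estimation program, so the Ugt1a values are not independent of each other.

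Outside Ugt1a, 17 of 28 members shared no window of 100 bases with any other gene. Ugt2b5 and Ugt2b38 shared 24.7% and 24.2% of theirs, and their coding sequences were 97.0% identical. Among the sulfotransferases Sult2a2 shared 34.6%, Sult2a5 16.6% and Sult2a1 11.4%. The annotated Sult2a2 transcript was short, with 582 coding bases against 855 in Sult2a5 and Sult2a1. The share of Sult2a2 was thus taken over 642 windows, against 947 and 921 for the other 2. The first 90 coding bases of the Sult2a genes over FPKM 1 (GENCODE M21) show how alike these copies are, with capitals at bases that differ from Sult2a1.
Sult2a1: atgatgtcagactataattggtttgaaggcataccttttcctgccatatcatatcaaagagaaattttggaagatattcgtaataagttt
Sult2a2: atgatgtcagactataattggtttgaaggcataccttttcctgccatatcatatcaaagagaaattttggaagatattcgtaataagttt
Sult2a5: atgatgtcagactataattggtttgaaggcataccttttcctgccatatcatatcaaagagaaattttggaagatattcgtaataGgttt
Sult2a6: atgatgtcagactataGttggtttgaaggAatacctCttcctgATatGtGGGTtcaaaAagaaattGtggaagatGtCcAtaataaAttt
Sult2a2 had 0 differing bases in this stretch, Sult2a5 had 1 and Sult2a6 had 16. The values of Sult2a1, Sult2a2 and Sult2a5 are uncertain to the extent that reads of such stretches were divided between them.

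Part of the Ugt2b cluster of chromosome 5 also shared upstream sequence. The 120 bases before the start of 4 genes of the cluster (RefSeq starts, build GRCm38.p6, minus strand, written 5′ to 3′) are shown because 3 of these genes were among those that fell after ASNase in Atf4-/- liver and the fourth, Ugt2b37, had a pattern of its own. Capitals mark the longest run of letters present in all 4, which is 22 bases long. The run was taken from these 4 genes, so its presence in them was fixed in advance. Among 32851 RefSeq promoters it was found in 4 (0.0122%), those of these genes. Ugt2b1, Ugt2a3 and Ugt3a1 fell in Atf4-/- liver without it, and a link of the run to the fall was not tested.
Ugt2b36 (chr5:87092556-87092675): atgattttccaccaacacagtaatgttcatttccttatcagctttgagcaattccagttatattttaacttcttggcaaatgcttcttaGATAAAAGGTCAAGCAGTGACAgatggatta
Ugt2b5 (chr5:87140341-87140460): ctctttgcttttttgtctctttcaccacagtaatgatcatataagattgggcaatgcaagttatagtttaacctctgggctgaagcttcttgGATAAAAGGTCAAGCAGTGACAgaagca
Ugt2b37 (chr5:87254789-87254908): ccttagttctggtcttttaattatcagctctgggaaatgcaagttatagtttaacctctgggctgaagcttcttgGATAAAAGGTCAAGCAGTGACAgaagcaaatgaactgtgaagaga
Ugt2b38 (chr5:87424204-87424323): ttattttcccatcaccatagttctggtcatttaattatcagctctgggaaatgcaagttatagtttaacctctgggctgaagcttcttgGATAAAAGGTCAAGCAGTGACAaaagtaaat
Ugt2b37 and Ugt2b5 shared an unbroken run of 68 bases upstream and 94.7% of their aligned coding bases.

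Each value carries the lower and upper bound that the authors' program gave, written below in brackets. Genes entered a comparison if both estimates were OK and above 0 and at least 1 was over an FPKM of 3. An eligible gene was called, that is said to have risen or fallen, when the difference of log2(FPKM + 0.1) was also over 1.5 in size, 2.83-fold, and the 2 intervals did not overlap. Differences of low genes are understated on that scale. For genes over an FPKM of 3 the median distance from a value to its bound was 51.3% to 54.2% of the value in the 6 groups, and 51.4% to 63.6% for the members, so only large differences could pass. Depth behind a value is unknown because FPKM carry no counts. Gcn2 (listed as Eif2ak4) stood at 2.31 and 2.96 FPKM in the Gcn2-/- groups and at 2.19 to 3.14 FPKM in the other 4. As the Gcn2 allele removes part of the gene, a level over the whole gene does not check it. Atf4 stood at 32.3 and 29.3 FPKM in the Atf4-/- groups and at 50.4 to 68.1 FPKM in the others, with intervals that overlapped those of WT. The authors reported from read density plots that Atf4 was absent in Atf4-/- mice, and they also measured it by RT-qPCR. Why the listed level stays above 0 was not tested. Males were 1 of 3 mice in WT PBS and 2 of 3 in WT ASNase, 1 of 3 in both Gcn2-/- groups and 2 of 3 in both Atf4-/- groups. The summed level of 15 hepatocyte markers was 53258 FPKM under PBS and 44034 under ASNase in WT, 54051 and 31449 in Gcn2-/-, and 46299 and 22606 in Atf4-/- liver. The list held 16 markers, and Fgb was left out because its status was OK in only 4 groups. Fgb stood at 2579 FPKM in WT PBS, 4043 in Gcn2-/- PBS and 4919 in Atf4-/- PBS. Both knockout ASNase groups listed it at 0. Single markers went both ways, 12 of the 15 being lower and 3 higher under ASNase than under PBS in each knockout strain, and Apoa2 alone made up 17967 FPKM of the WT PBS sum. Tat differed by 1.70 and 1.08 on the log2 scale in Gcn2-/- and Atf4-/- liver. Fewer hepatocytes and less RNA per hepatocyte cannot be told apart in bulk liver. Markers of skeletal muscle summed to 654 and 941 FPKM in the WT groups and to 5.72 to 109 FPKM in the others, those of pancreatic acinar cells to 40.1 FPKM in WT ASNase, 275 FPKM in Atf4-/- ASNase and under 1 FPKM elsewhere, and those of lung epithelium to 132 FPKM in WT PBS and at most 2.05 FPKM elsewhere. The part of these tissues in the results was not tested.

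The UGT2 genes carried most of the glucuronosyltransferase message, and the summed message was lower after ASNase in both knockout strains. The 9 UGT2 members summed to 1603 FPKM in WT PBS and 1485 in WT ASNase. In Gcn2-/- liver the sum was 1636 FPKM under PBS and 530 FPKM under ASNase. In Atf4-/- liver it was 1628 FPKM under PBS and 264 FPKM under ASNase. All 20 UDP-glucuronosyltransferases together summed to 2403 FPKM in WT PBS, 2253 in WT ASNase, 2300 and 900 in Gcn2-/- liver under PBS and ASNase, and 2386 and 783 in Atf4-/- liver. UGT2 made up 65.9% to 71.1% of that total in the 3 PBS groups and in WT ASNase, 58.8% in Gcn2-/- ASNase and 33.8% in Atf4-/- ASNase.

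Ugt2b36 (ENSMUSG00000070704, chr5:87065927-87092555, minus strand) was the highest UDP-glucuronosyltransferase in every PBS group. Gene positions are those of GENCODE M21 on GRCm38. It stood at 512 [202, 822] FPKM under PBS and 462 [183, 741] under ASNase in WT, 559 [209, 908] and 192 [84.3, 299] in Gcn2-/-, and 504 [193, 814] and 39.1 [16.5, 61.7] in Atf4-/- liver. The Atf4-/- ASNase interval lay below that of each of the other 5 groups, and those 5 overlapped one another. Ugt2b36 therefore fell in Atf4-/- liver, with a log2 change of -3.68, 12.9-fold. In Gcn2-/- liver its difference of -1.54 passed the size limit but the intervals overlapped.

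Ugt2b5 (ENSMUSG00000054630, chr5:87124960-87140318, minus strand) came next in level under PBS, and Atf4-/- ASNase was again its lowest group. Its FPKM was 432 [193, 672] under PBS and 398 [180, 616] under ASNase in WT, 436 [198, 674] and 138 [73.7, 203] in Gcn2-/-, and 449 [181, 716] and 54.2 [28.4, 80] in Atf4-/- liver. It fell 8.28-fold in Atf4-/- liver, a log2 change of -3.05. The log2 difference in Gcn2-/- liver was -1.66, and there the upper bound of 203 FPKM under ASNase overlapped the lower bound of 198 FPKM under PBS.

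Ugt2b1 (ENSMUSG00000035836, chr5:86916638-86926530, minus strand) fell in both knockout strains. It stood at 250 [103, 398] FPKM under PBS and 231 [109, 353] under ASNase in WT, 206 [100, 313] and 35.2 [20, 50.3] in Gcn2-/-, and 255 [118, 393] and 21.8 [12, 31.6] in Atf4-/- liver. Both knockout ASNase intervals lay below those of the other 4 groups and overlapped each other. The change was -2.55 in Gcn2-/- and -3.54 in Atf4-/- liver on the log2 scale, or 5.87-fold and 11.7-fold lower.

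Ugt2a3 (ENSMUSG00000035780, chr5:87324972-87337195, minus strand), whose human counterpart glucuronidates bile acids, fell in both as well, and further in Atf4-/- liver. Its FPKM was 161 [85.5, 236] under PBS and 137 [73.7, 201] under ASNase in WT, 197 [99.5, 295] and 55.2 [30.6, 79.8] in Gcn2-/-, and 155 [81.5, 229] and 14.4 [7.78, 21] in Atf4-/- liver. The interval of Atf4-/- ASNase lay below that of Gcn2-/- ASNase. The log2 change was -1.83, 3.57-fold, in Gcn2-/- and -3.42, 10.8-fold, in Atf4-/- liver.

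Ugt2b34 and Ugt2b35, which lie on either side of Ugt2b1 on the chromosome, were not called after ASNase. Ugt2b34 stood at 176 [87.5, 264] FPKM under PBS and 175 [85.7, 264] under ASNase in WT, 176 [86.6, 266] and 75.1 [41.2, 109] in Gcn2-/-, and 174 [87.4, 261] and 92.7 [41.9, 144] in Atf4-/- liver. Ugt2b35 stood at 64.7 [34.4, 94.9], 79.5 [44, 115], 55.4 [32.1, 78.8], 28.7 [16.9, 40.5], 83.9 [45.8, 122] and 41.7 [19.6, 63.7] FPKM in the same order. The log2 differences of both in the knockouts lay between -1.23 and -0.91, and all ASNase intervals overlapped the PBS interval of the same strain. With the other genes lower, Ugt2b34 made up 35.1% of the UGT2 sum in Atf4-/- ASNase and 10.7% to 14.2% in the other groups.

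Ugt2b38 and Ugt2b37 were low. Ugt2b38 (ENSMUSG00000061906, chr5:87409942-87424203, minus strand) stood at 3.19 [1.23, 5.15] FPKM under PBS and 1.73 [0.485, 2.98] under ASNase in WT, 2.97 [1.28, 4.66] and 0.708 [0.0528, 1.36] in Gcn2-/-, and 4.62 [2.03, 7.2] and 0.101 [0, 0.238] in Atf4-/- liver. It fell in Atf4-/- liver, with a log2 change of -4.56. Given its likeness to Ugt2b5, how far its value rests on reads of that gene was not tested. Ugt2b37 stood at 3.68 [1.67, 5.69], 1.2 [0.386, 2.02], 2.19 [0.853, 3.52], 4.69 [2.3, 7.09], 2.71 [0.972, 4.45] and 0.427 [0.00159, 0.853] FPKM in the same order of groups. Its highest group was Gcn2-/- ASNase and its lowest Atf4-/- ASNase, and those intervals did not overlap, with a log2 difference of -3.18 between Atf4-/- and Gcn2-/- liver under ASNase. After ASNase its log2 difference was -1.54 in WT liver, with intervals that overlapped, and 1.07 in Gcn2-/- liver, again with overlap. It was -2.41 in Atf4-/- liver, where the intervals were separate but both values were under an FPKM of 3. The remaining UGT2 member, listed as Ugt2a1 with an identifier that GENCODE M21 names Ugt2a2, reached at most 0.088 FPKM.

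UGT3A enzymes use other sugar donors, N-acetylglucosamine for UGT3A1 and glucose or xylose for UGT3A2 in man. The mouse genes are neighbours on chromosome 15, with coding sequences 93.2% identical but no shared window of 100 bases. After ASNase Ugt3a1 fell in Atf4-/- liver and Ugt3a2 was not called. Ugt3a1 (ENSMUSG00000072664, chr15:9276888-9315032, plus strand) stood at 64.1 [25.2, 103] FPKM under PBS and 53.8 [22, 85.6] under ASNase in WT, 48.9 [22, 75.7] and 16.6 [8.3, 25] in Gcn2-/-, and 62.9 [24.1, 102] and 5.35 [2.36, 8.34] in Atf4-/- liver. The log2 change was -3.53, 11.8-fold. The difference of -1.55 in Gcn2-/- liver was past the size limit, but the intervals overlapped. Ugt3a2 stood at 163 [84.9, 240], 150 [79.5, 221], 143 [76.9, 210], 72.8 [41.1, 105], 155 [81.2, 230] and 76.6 [43.5, 110] FPKM in the same order and was not called, its log2 difference being -0.98 in Gcn2-/- and -1.02 in Atf4-/- liver.

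**Figure D1:**
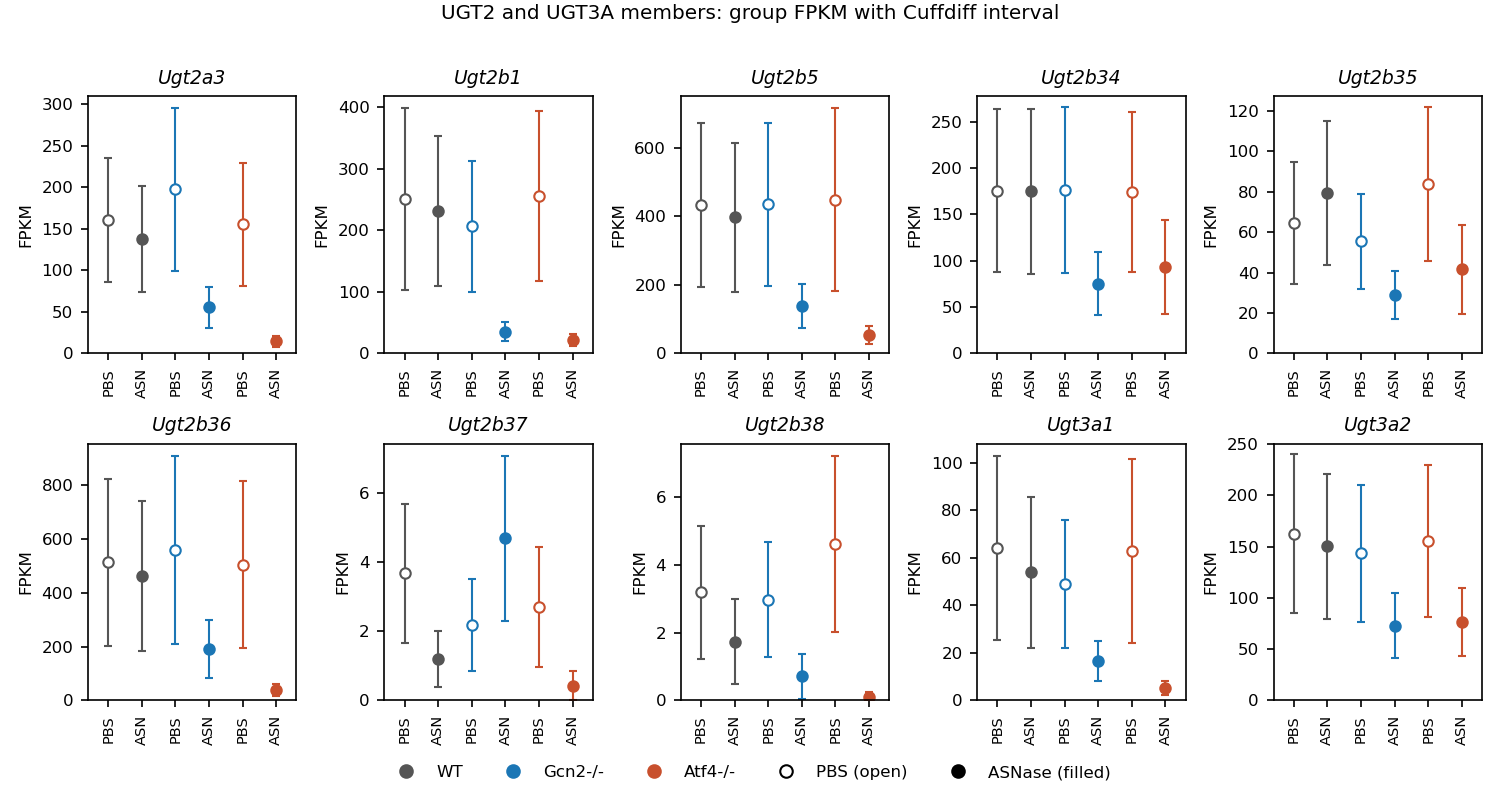
FPKM (y axis, linear from 0) of 10 UGT2 and UGT3A members in the 6 groups, with open points for PBS, filled points for ASNase, a colour per strain and bars for the interval of the estimate over 3 mice. In Atf4-/- ASNase the points of Ugt2a3, Ugt2b1, Ugt2b5, Ugt2b36, Ugt2b38 and Ugt3a1 lie below the bars of Atf4-/- PBS, while Ugt2b34, Ugt2b35 and Ugt3a2 keep overlapping bars.

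No UGT1A gene was called in any comparison, and their intervals were wide. Ugt1a1, the enzyme that conjugates bilirubin, stood at 292 [54.1, 531] FPKM under PBS and 289 [56, 522] under ASNase in WT, 268 [67.5, 469] and 141 [27.4, 256] in Gcn2-/-, and 354 [91.8, 616] and 320 [110, 531] in Atf4-/- liver. All 6 intervals overlapped. In Atf4-/- liver the log2 difference after ASNase was -0.14, and in Gcn2-/- liver -0.92. With UGT2 low, Ugt1a1 was the highest UDP-glucuronosyltransferase of Atf4-/- ASNase liver, at 40.9% of the summed FPKM of the family against 11.7% to 15.7% in the other 5 groups.

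Ugt1a9, a phenol conjugating form, had the largest differences of the locus. It stood at 99.3 FPKM under PBS and 130 under ASNase in WT, 68.8 and 34.2 in Gcn2-/-, and 55.3 and 14.3 in Atf4-/- liver. The difference between Atf4-/- and WT under ASNase was -3.17 on the log2 scale, yet every lower bound was 0, so intervals could not separate. Ugt1a5 stood at 74.1, 50.4, 47, 27.9, 31.4 and 27 FPKM in the same order. The phenol conjugating Ugt1a6a stood at 70.7, 62.8, 58, 48.9, 62.8 and 49 FPKM, and its close copy Ugt1a6b at 33.7, 28.2, 27, 25.8, 31.8 and 23.5 FPKM. These 3 genes differed after ASNase by no more than 0.75 on the log2 scale in any strain. Ugt1a7c ranged from 1.59 to 2.19 FPKM and Ugt1a10 from 0.518 to 1.28 FPKM. Ugt1a2 and Ugt1a8 reached at most 0.376 and 0.12 FPKM. Lower bounds were 0 in all 6 groups for 8 of the 9 genes, the exception being Ugt1a1. The sum over the 9 genes was 573 and 564 FPKM in WT, 472 and 281 FPKM in Gcn2-/- and 539 and 437 FPKM in Atf4-/- liver under PBS and ASNase.

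**Figure D2:**
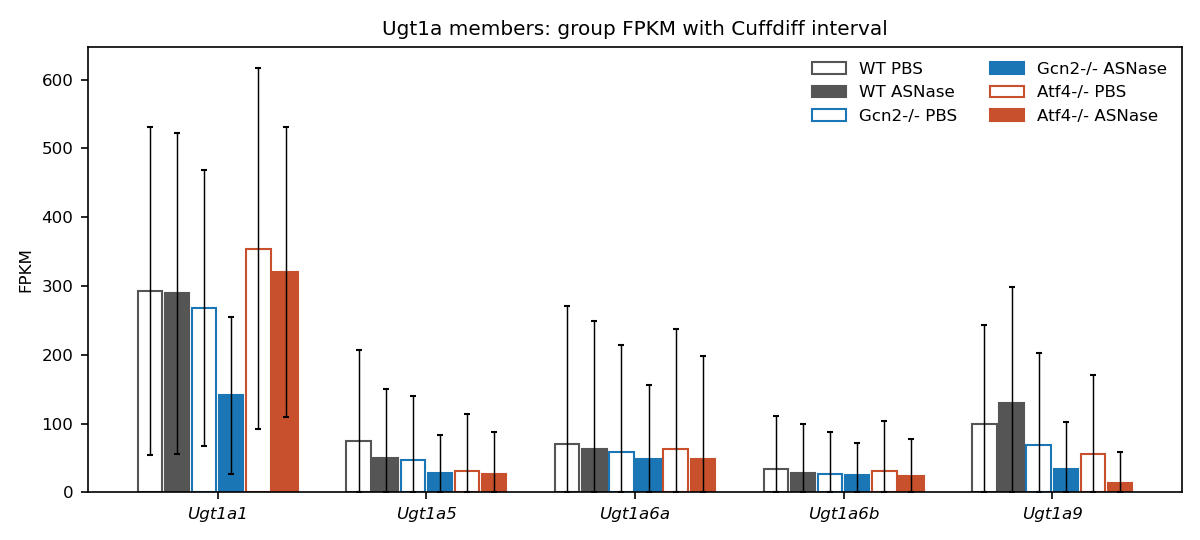
FPKM (y axis, from 0) of 5 Ugt1a members in the 6 groups, open bars for PBS and filled bars for ASNase, with lines for the interval of the estimate over 3 mice. Ugt1a1 stands at 320 FPKM in Atf4-/- ASNase against 354 FPKM in Atf4-/- PBS, and the intervals of Ugt1a5, Ugt1a6a, Ugt1a6b and Ugt1a9 reach 0 in every group.

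Among the sulfotransferases the estrogen sulfotransferase Sult1e1 (ENSMUSG00000029272, chr5:87575969-87591594, minus strand), which inactivates estrogens by sulfation, rose in both knockout strains. It stood at 0.372 [0.0101, 0.734] FPKM under PBS and 2.11 [0.347, 3.87] under ASNase in WT, 2.11 [0.554, 3.67] and 41.5 [12.8, 70.3] in Gcn2-/-, and 0.943 [0, 1.94] and 15.8 [8.47, 23.1] in Atf4-/- liver. The 2 knockout ASNase intervals lay above those of the other 4 groups and overlapped each other. The log2 change was 4.23 in Gcn2-/- and 3.93 in Atf4-/- liver. In WT liver the log2 difference was 2.22, but neither value was over an FPKM of 3 and the intervals overlapped. Sult1e1 was the only member that rose after ASNase in any strain.

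Sult1c2 (ENSMUSG00000023122, chr17:53829637-53846339, minus strand) fell in the same 2 strains. Its FPKM was 3.69 [1.71, 5.67] under PBS and 3.85 [1.81, 5.88] under ASNase in WT, 6.09 [3.18, 9] and 0.432 [0.0695, 0.795] in Gcn2-/-, and 3.84 [1.81, 5.88] and 0.15 [0, 0.322] in Atf4-/- liver. Both knockout ASNase intervals lay below all others. The log2 change was -3.54 in Gcn2-/- and -3.98 in Atf4-/- liver.

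The abundant SULT1 members were not called in any comparison. Sult1a1, the main phenol sulfotransferase of liver, stood at 269 [133, 404] FPKM under PBS and 275 [137, 414] under ASNase in WT, 352 [173, 531] and 367 [169, 564] in Gcn2-/-, and 228 [109, 346] and 343 [159, 528] in Atf4-/- liver. It carried 43.6% to 56.9% of the summed FPKM of the 17 sulfotransferase members. That sum leaves out Sult2a8, which is listed under another name and stood at 452 FPKM in WT PBS, so the share among all sulfotransferases is lower. Sult1d1, which acts on catecholamines, stood at 96.8, 103, 136, 121, 118 and 85.6 FPKM in that order. Sult1b1, which acts on thyroid hormones, stood at 22, 20.5, 26.2, 12.4, 16.4 and 8.52 FPKM, its log2 difference being -1.08 in Gcn2-/- and -0.93 in Atf4-/- liver, which did not pass. Sult1c1 was listed at 0 in all 6 groups.

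The SULT2A enzymes sulfate hydroxysteroids and bile acids. Sult2a5 (ENSMUSG00000078799, chr7:13623967-13670807, plus strand) stood at 5.63 [1.89, 9.37] FPKM under PBS and 10.4 [3.11, 17.8] under ASNase in WT, 4.75 [1.87, 7.62] and 0.745 [0.0674, 1.42] in Gcn2-/-, and 5.57 [1.93, 9.22] and 3.02 [0.512, 5.52] in Atf4-/- liver. It fell in Gcn2-/- liver, with a log2 change of -2.52, while the difference of -0.86 in Atf4-/- liver did not pass. Sult2a1 stood at 20.4 [6.93, 33.9], 31.8 [10.7, 53], 23.2 [11.5, 34.8], 67.1 [32.6, 102], 24.7 [7.44, 41.9] and 79 [16, 142] FPKM in the same order. Differences of 1.53 for Gcn2-/- and 1.68 for Atf4-/- liver on the log2 scale were past the size limit, with intervals that overlapped.

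Sult2a2, the highest of the SULT2A members in every group but Atf4-/- ASNase, stood at 109 [36.2, 181] FPKM under PBS and 118 [29.4, 207] under ASNase in WT, 112 [54.2, 170] and 93.5 [45.9, 141] in Gcn2-/-, and 37 [11.1, 63] and 63.7 [16.9, 110] in Atf4-/- liver. Its level in Atf4-/- PBS differed from WT PBS by -1.55 on the log2 scale, but the intervals overlapped. Sult2a6 was listed at 0 in WT PBS, WT ASNase and Gcn2-/- ASNase and stood at 0.0163 FPKM in Gcn2-/- PBS. In Atf4-/- liver it stood at 4.67 [1.46, 7.88] FPKM under PBS and 2.48 [0.425, 4.53] under ASNase. The status of Sult2a6 was OK in all 6 groups. A 0 allows no fold and made a gene not eligible, so no fold against a group listed at 0 was computed. Within Atf4-/- liver its difference of -0.89 after ASNase on the log2 scale did not pass. Sult2a3, Sult2a4 and Sult2b1 stayed at or under 0.644 FPKM.

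Some genes of the family carry another name in the table and so are no members. The largest is Sult2a8 of current annotation, listed as 2810007J24Rik and known as a bile acid sulfotransferase of mouse liver. Its FPKM was 452 [144, 759] under PBS and 385 [119, 652] under ASNase in WT, 355 [148, 563] and 13.9 [6.4, 21.3] in Gcn2-/-, and 482 [134, 829] and 2.52 [0.598, 4.44] in Atf4-/- liver. It was higher than every sulfotransferase member in each PBS group and fell by 4.67 in Gcn2-/- and 7.52 in Atf4-/- liver on the log2 scale. Sult2a7, listed as AC092752.1, fell in Atf4-/- liver from 6.86 to 0.276 FPKM, and Sult3a2, listed as Gm4794, from 3.19 to 0.243 FPKM. Sult6b2, listed as Gm766, was at most 0.0485 FPKM.

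Sult3a1 (ENSMUSG00000069668, chr10:33857721-33879532, plus strand), an amine sulfotransferase that is higher in female than in male mouse liver, was the one member that fell in WT liver. It stood at 30.2 [14.1, 46.3] FPKM under PBS and 1.73 [0.222, 3.24] under ASNase in WT, 13.5 [6.29, 20.7] and 3.93 [1.34, 6.53] in Gcn2-/-, and 64.7 [16.4, 113] and 0.571 [0, 1.21] in Atf4-/- liver. ASNase was lower than PBS in each strain, with separate intervals in WT and Atf4-/- and narrowly overlapping ones in Gcn2-/- liver. The log2 change was -4.05 for WT and -6.59 in Atf4-/- liver, against a difference of -1.75 in Gcn2-/- liver. The WT groups differ in the number of males, 1 of 3 under PBS and 2 of 3 under ASNase, and a sum of 4 Y-linked genes moved with it, from 19.8 to 35.2 FPKM. In Atf4-/- liver, with 2 males of 3 in both groups, that sum was 39.4 and 45.9 FPKM. The part of sex in the WT change was not tested.

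Sult5a1 was estimated within a single locus of 4435365 bases that held 155 genes, and every lower bound was 0. Its values were 12.1 FPKM under PBS and 6.03 under ASNase in WT, 7.79 and 1.45 in Gcn2-/-, and 18.2 and 1.24 in Atf4-/- liver, with upper bounds from 41.4 to 150 FPKM. No difference of Sult5a1 could be called. Sult4a1, known from brain, and Sult6b1 reached at most 0.0691 and 0.0344 FPKM.

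**Figure D3:**
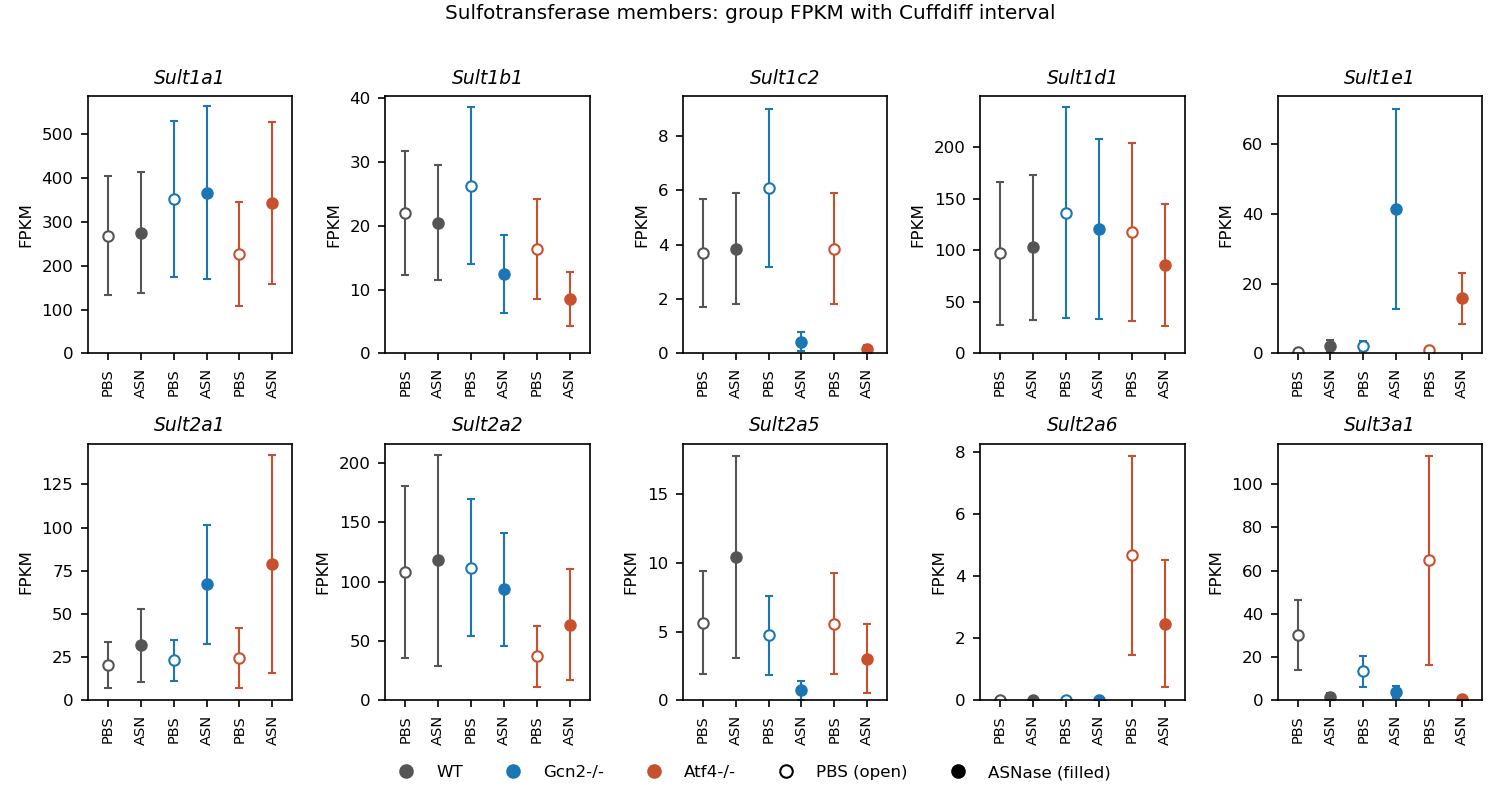
FPKM (y axis, linear from 0) of 10 sulfotransferase members in the 6 groups, with open points for PBS, filled points for ASNase, a colour per strain and bars for the interval of the estimate over 3 mice. Sult1e1 stands at 41.5 and 15.8 FPKM in the 2 knockout ASNase groups and at no more than 2.11 FPKM elsewhere, Sult1c2 drops to 0.432 and 0.15 FPKM in those 2 groups, and Sult3a1 is lower under ASNase in all 3 strains.

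In number, 1 of 24 eligible members was called after ASNase in WT liver, Sult3a1, where 0.881% of all eligible genes were called. In Gcn2-/- liver 5 of 24 members were called, 20.8%, against 3.69% of all genes. They were Sult1c2, Sult2a5, Ugt2a3 and Ugt2b1, which fell, and Sult1e1, which rose. The share called lower was 16.7% of the members and 2.13% of all genes. In Atf4-/- liver 9 of 25 members were called, 36%, against 7.37% of all genes. Those that fell were Sult1c2, Sult3a1, Ugt2a3, Ugt2b1, Ugt2b5, Ugt2b36, Ugt2b38 and Ugt3a1, or 32% of members against 4.63% of all genes, and Sult1e1 rose. Past the size limit at any interval were 2 of 24 members in WT, 11 of 24 in Gcn2-/- and 12 of 25 in Atf4-/- liver, against 1.48%, 6.58% and 12.2% of all genes. Over the 28 members above FPKM 1 the median log2 difference was -0.11 for WT, -0.96 for Gcn2-/- and -0.94 for Atf4-/- liver, while over the 12758 genes above FPKM 1 it was 0.0031, 0.027 and 0.048. By family, the median of the 8 UGT2 genes was -0.14, -1.60 and -3.23 in WT, Gcn2-/- and Atf4-/- liver, that of 7 UGT1A genes -0.17, -0.57 and -0.36, that of 5 SULT1 genes 0.059, -0.17 and -0.46, and that of 4 SULT2 genes 0.38, -0.24 and -0.041.

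**Figure D4:**
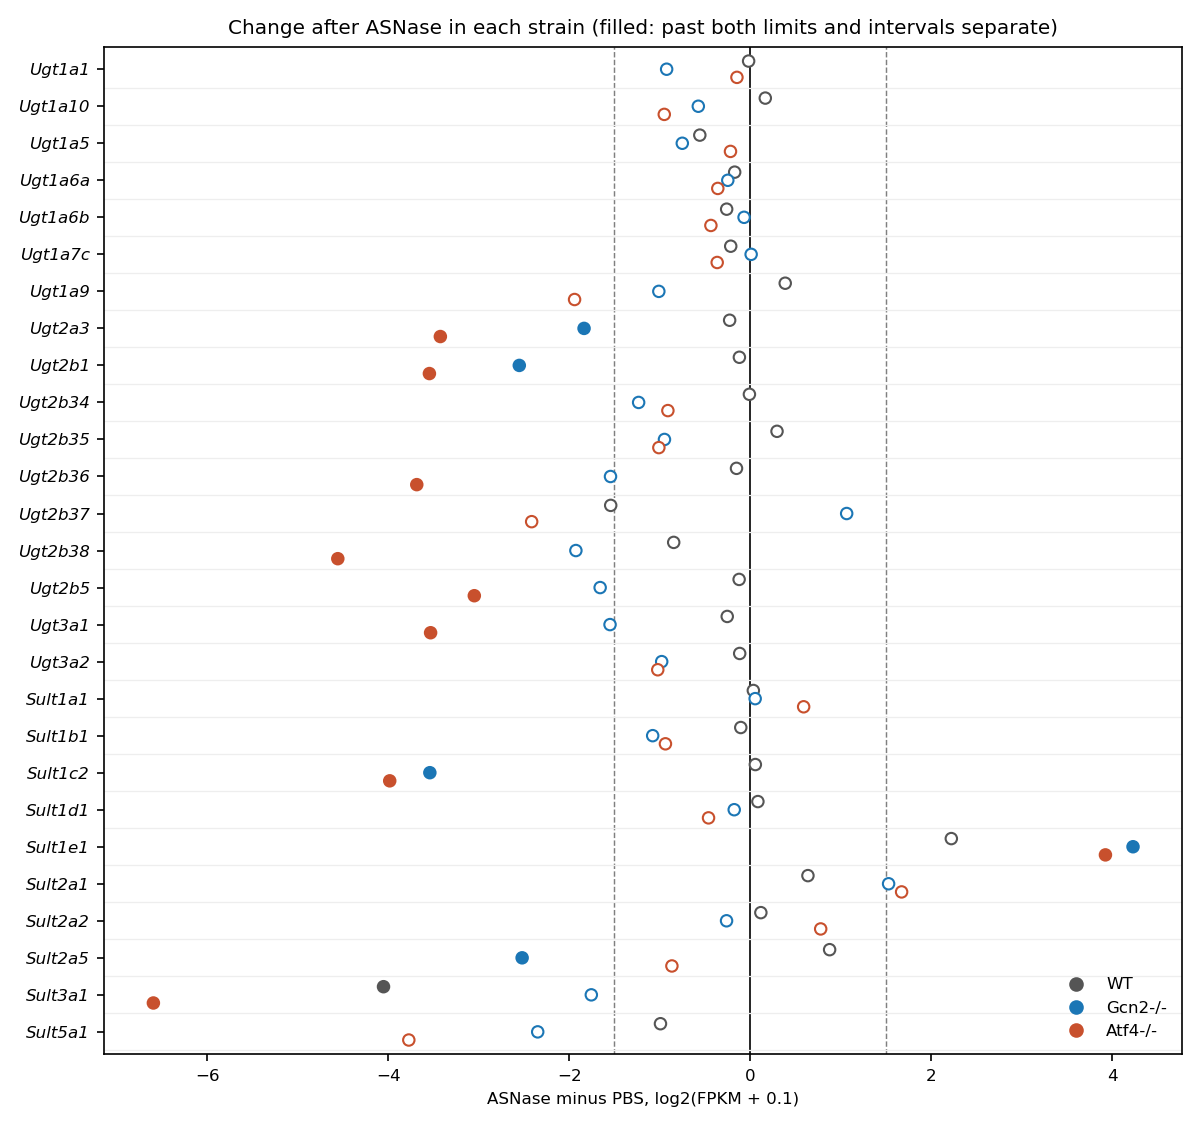
Difference between ASNase and PBS on the log2(FPKM + 0.1) scale (x axis) for the 27 members over FPKM 1 that were above 0 in every group (y axis), with a colour per strain, filled points for called changes and dashed lines at the limit of 1.5. WT points lie near 0 for most members, the points of both knockouts lie to the left for the UGT2 genes other than Ugt2b37, and the filled points of Sult1e1 lie on the right at 4.23 and 3.93.

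Under PBS neither knockout had a called member against WT, 0 of 24 in each, where 1.04% of all genes were called for Gcn2-/- and 1.12% for Atf4-/- liver. At any interval 1 of 24 members passed the size limit, Sult2a2 in Atf4-/- liver, where 1.99% of all genes did. Sult2a6, at 4.67 FPKM in Atf4-/- PBS and listed at 0 in WT PBS, was not eligible. The median difference of the 28 members from WT was -0.11 in Gcn2-/- and 0.0070 in Atf4-/- liver. Males were 1 of 3 mice in WT PBS and Gcn2-/- PBS and 2 of 3 in Atf4-/- PBS. The part of sex in the differences between Atf4-/- and WT liver under PBS was not tested.

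Under ASNase the knockouts were set against WT directly. Gcn2-/- liver had 5 of 24 members called, against 4.41% of all genes, and 9 of 24 past the size limit at any interval, against 7.67%. Of the called members, Sult1c2 at -2.89, Sult2a5 at -3.64 and Ugt2b1 at -2.71 were lower, and Sult1e1 at 4.24 and Ugt2b37 at 1.88 higher. The call of Ugt2b37 was lost with a pseudocount of 1, at 1.37. Atf4-/- liver had 7 of 22 called, against 8.25% of all genes. Lower were Sult1c2 at -3.98, Ugt2a3 at -3.24, Ugt2b1 at -3.40, Ugt2b36 at -3.56, Ugt2b5 at -2.87 and Ugt3a1 at -3.31, and Sult1e1 was higher at 2.85. These comparisons share the WT ASNase mice. Between the knockouts, Atf4-/- was lower than Gcn2-/- liver in 4 of 22 members, where 2.29% of all genes were lower and 3.19% were called in either direction. The 4 were Sult3a1 at -2.59, Ugt2a3 at -1.93, Ugt2b36 at -2.29 and Ugt2b37 at -3.18. Males were 2 of 3 mice in WT ASNase and Atf4-/- ASNase and 1 of 3 in Gcn2-/- ASNase. Comparisons of Gcn2-/- liver with either of the others under ASNase therefore differ in sex as well. The part of sex in them, also for the female-biased Sult3a1, was not tested.

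Whether the response to ASNase itself differed between strains was asked of the difference of the 2 log2 changes. It had to exceed 1.5 and a combined interval of the 4 values. That interval used only the distance on the log2 scale from each value to its upper bound. An interval of even width in FPKM reaches further below a value on that scale, and this side was not used. Sult3a1 and Sult1e1 in WT ASNase are examples, at 1.73 [0.222, 3.24] and 2.11 [0.347, 3.87] FPKM. Sult2a5 in Atf4-/- ASNase is another, at 3.02 [0.512, 5.52] FPKM. Which responses would pass with the lower bounds was not tested. Gcn2-/- and WT responses differed in 8 of 25 members, where 6.89% of all genes differed. They were Sult1c2, Sult1e1, Sult2a5, Sult3a1, Ugt2a3, Ugt2b1, Ugt2b5 and Ugt2b37. Atf4-/- and WT responses differed in 10 of 25, where 9.71% of all genes differed. They were Sult1c2, Sult1e1, Sult2a5, Sult3a1, Ugt2a3, Ugt2b1, Ugt2b5, Ugt2b36, Ugt2b38 and Ugt3a1. The response of Sult3a1 differed from WT in opposite directions, being weaker in Gcn2-/- liver by 2.30 and stronger in Atf4-/- liver, at -2.54. The WT response compares groups with 1 male of 3 under PBS and 2 of 3 under ASNase, while each knockout strain kept its number. The part of sex in these differences from WT was not tested. Between the 2 knockouts the response differed in 7 of 25, where 5.93% of all genes differed. Atf4-/- changes were lower for Sult3a1 by -4.84, Ugt2b37 by -3.48, Ugt2b38 by -2.63, Ugt2b36 by -2.14, Ugt3a1 by -1.98 and Ugt2a3 by -1.59, and higher for Sult2a5 by 1.66. The responses of Ugt2b1, Ugt2b5, Sult1c2 and Sult1e1 did not pass as different between the knockouts.

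Position along chromosome 5 set the UGT2 genes beside 3 SULT1 genes. The order was Ugt2b34, Ugt2b1, Ugt2b35, Ugt2b36, Ugt2b5, Ugt2b37, Ugt2a3, Ugt2b38 and Ugt2a1, then Sult1b1, Sult1d1 and Sult1e1. Genes that fell in Atf4-/- liver stood on both sides of others that were not called, Ugt2b1 lying between Ugt2b34 and Ugt2b35. At the far end Sult1e1 rose while its neighbour Sult1d1 differed by -0.17 in Gcn2-/- and -0.46 in Atf4-/- liver.

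**Figure D5:**
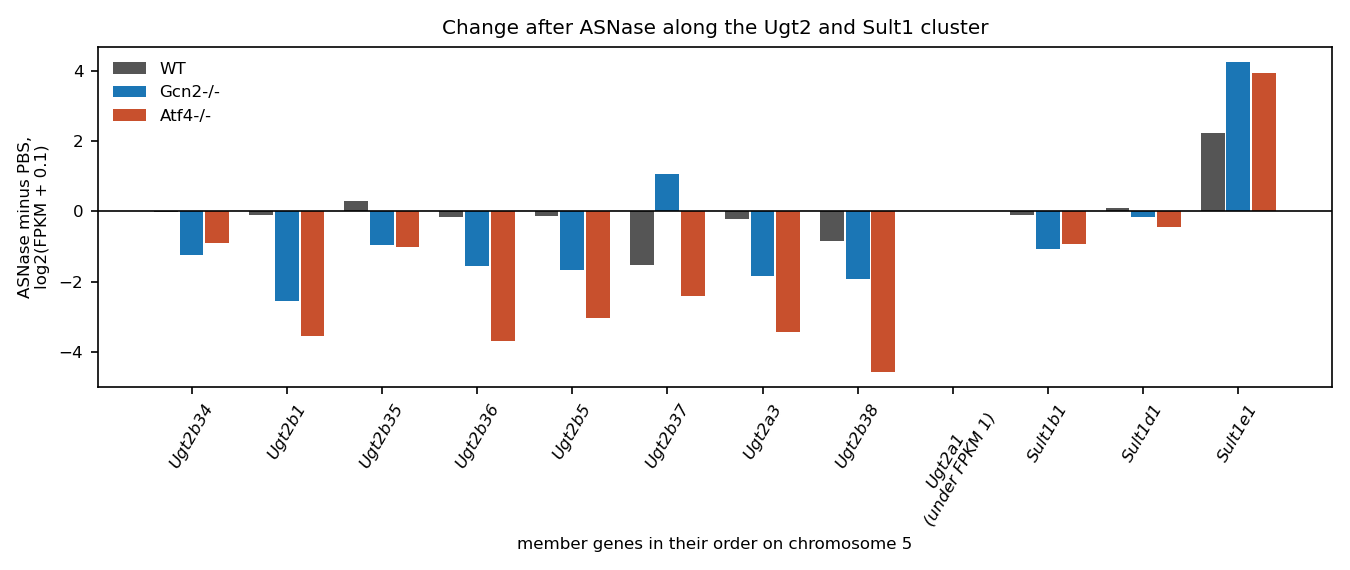
Difference between ASNase and PBS on the log2(FPKM + 0.1) scale (y axis) for 12 members in their order on chromosome 5 (x axis, not to distance), a bar per strain; Ugt2a1, under FPKM 1, has no bar. Ugt2b37 is the UGT2 gene with a bar above 0 in Gcn2-/- liver, at 1.07, and Sult1e1 stands at 2.22, 4.23 and 3.93 in WT, Gcn2-/- and Atf4-/- liver.

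Messages for the supply of both donor molecules had lower sums in the knockouts after ASNase, though single genes went both ways and few were called. For UDP-glucuronic acid the 6 listed genes summed to 416 and 434 FPKM in WT, 412 and 213 FPKM in Gcn2-/- and 389 and 201 FPKM in Atf4-/- liver under PBS and ASNase. Of the 6, 5 were lower and 1 higher after ASNase in Gcn2-/- liver, and 4 were lower and 2 higher in Atf4-/- liver. None of them was called after ASNase in any strain. Ugdh, the enzyme that oxidises UDP-glucose to UDP-glucuronic acid, was lower in Atf4-/- than in WT liver under ASNase, with a log2 difference of -2.42, and this was the one call of the list over all 8 comparisons. For PAPS the 8 listed genes summed to 205 and 201 FPKM in WT, 217 and 123 FPKM in Gcn2-/- and 188 and 105 FPKM in Atf4-/- liver. Of the 8, 5 were lower and 3 higher after ASNase in Gcn2-/- liver, and 4 were lower and 4 higher in Atf4-/- liver. Their median log2 differences were -0.22 and -0.17. Papss2, the PAPS synthase that predominates in liver, fell after ASNase, at -1.75 in Gcn2-/- and -1.59 in Atf4-/- liver on the log2 scale, and was also lower than WT under ASNase, at -1.58 and -1.89. The other 7 genes had no call.

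Of 6 listed genes that remove conjugates, such as Gusb, the lysosomal beta-glucuronidase, 5 were found and 0 were called in any comparison, with sums of 41.5 to 53.1 FPKM. The 5 exporters of conjugates, among them Abcc2, the canalicular pump for glucuronides, had 0 calls, with 3 of the 5 eligible and sums of 94.7 to 214 FPKM. Abcc4, which was not eligible, stood at 0.54 [0.2, 0.88] FPKM under PBS and 2.11 [1.1, 3.12] FPKM under ASNase in Atf4-/- liver, a log2 difference of 1.79 with separate intervals. Of 24 listed regulators, which include xenobiotic receptors, hepatic factors and growth hormone signalling, 1 was called. Ghr, the growth hormone receptor, fell by 2.61 in Atf4-/- liver on the log2 scale and was lower than WT under ASNase, at -2.45. Hnf4a, a hepatic factor upstream of many of these genes, differed after ASNase by 0.013, -0.033 and 0.37 in WT, Gcn2-/- and Atf4-/- liver and was not called. Past the size limit after ASNase, but with overlapping intervals, were Ppara at -2.35 in Atf4-/- and Bcl6 at 1.58 in WT liver. Of the 24 regulators, 9 were lower and 15 higher after ASNase in WT, 12 and 12 in Gcn2-/-, and 16 and 8 in Atf4-/- liver.

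Genes known to be higher in male liver moved in the same comparisons. The 9 listed male-biased genes summed to 1833 and 2081 FPKM in WT, 1257 and 503 FPKM in Gcn2-/- and 2926 and 251 FPKM in Atf4-/- liver under PBS and ASNase, and 6 of 8 eligible ones fell in Gcn2-/- and 7 of 9 in Atf4-/- liver. The 10 female-biased genes summed to 291 and 167, 272 and 197, and 385 and 124 FPKM, with 2 of 6 and 3 of 8 falling in the 2 knockouts. Under PBS 3 of 9 eligible female-biased genes were called higher and 1 lower in Atf4-/- than in WT liver. Of the 9 male-biased genes 0 were called there. The numbers of males were equal under PBS and ASNase within each knockout strain. The part of these shifts, and of the lower hepatocyte marker sums, in the changes of the members was not tested. Over the 15 hepatocyte markers the median log2 difference was -0.54 in Gcn2-/- and -1.12 in Atf4-/- liver. In the same order it was -1.60 and -3.23 for the 8 UGT2 genes and -1.26 and -2.28 for 2 UGT3A genes. It was -0.57 and -0.36 for 7 UGT1A genes, -0.17 and -0.46 for 5 SULT1 genes, and -0.24 and -0.041 for 4 SULT2 genes. For Sult3a1 and Sult5a1 together it was -2.05 and -5.18.

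RefSeq promoters, 250 bases before to 50 after the start, were available for 32 member genes and were searched on both strands for 4 letter patterns chosen after the expression values had been seen. A member gene counted if any of its promoters matched, while the share over all is per single promoter, so the 2 rates are not in like units. GTTAAT, letters of the HNF1 site, occurred for 12 of 32 member genes and in 7.1% of 32851 promoters. CAAAGTCCA, a site of HNF4, occurred in 1 of 32 and in 0.475% of all. TNGCGTG, a core of the aryl hydrocarbon receptor site, occurred in 2 of 32 and in 5.07% of all. TGATGNAA, the composite site of ATF4 and C/EBP, occurred in 1 of 32 and in 3.97% of all. The 120 bases before the start are shown for Sult1e1, the member that rose and the one that held the composite letters, and for Ugt2a3 and Ugt1a1, which held the HNF1 letters, Ugt2a3 having fallen in Atf4-/- liver and Ugt1a1 not having been called. Capitals mark the matches.
Sult1e1 (chr5:87591612-87591731, minus strand): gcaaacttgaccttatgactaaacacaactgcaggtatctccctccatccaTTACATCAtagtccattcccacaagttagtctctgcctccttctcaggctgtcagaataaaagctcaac
Ugt2a3 (chr5:87337196-87337315, minus strand): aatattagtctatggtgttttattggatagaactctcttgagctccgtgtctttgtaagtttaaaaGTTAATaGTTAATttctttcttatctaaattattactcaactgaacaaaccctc
Ugt1a1 (chr1:88211839-88211958, plus strand): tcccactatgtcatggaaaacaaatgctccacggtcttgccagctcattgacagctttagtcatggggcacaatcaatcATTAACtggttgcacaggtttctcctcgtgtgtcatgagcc
In Sult1e1 the match began 69 bases before the start and read TTACATCA, the composite letters on the opposite strand. A match of letters is a description and shows no binding.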

How the data were processed

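RNA was taken from liver 7.5 h after the last injection per the labels. The authors made TruSeq poly-A libraries, sequenced single-end reads of 100 bases on an Illumina instrument, aligned them to mm10 with TopHat (v2.1.0), which calls Bowtie (v1.1.2), assembled and merged transcripts with Cufflinks v2.2.1 and Cuffmerge, and estimated 1 FPKM value per gene and group over 3 mice with Cuffdiff. The deposited table holds these FPKM values, their lower and upper bounds in FPKM and a status. Per-sample columns outside the map numbered 0.

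Groups were taken from the sample labels. Groups were compared on log2(FPKM + 0.1) over the whole table, with the eligibility and calling limits given above. The limits of FPKM and fold are those of the study's methods, and separate intervals stand in for its q value. No p-value was computed. Scripts were checked on made-up input with known answers. Sequences came from GENCODE M21 and RefSeq GRCm38.p6, the assembly that mm10 names, and all 37 members matched GENCODE by identifier. Every member over FPKM 1 in at least 1 group was named with its values. Members and lists were chosen with earlier results of these data known, and the promoter patterns after the values had been seen. Scripts used Python 3.11.15, pandas 2.3.3 and numpy 2.4.6. The alternatives tried were pseudocounts of 1 and 0.01, an FPKM limit of 1 or none, no interval condition, a combined interval, median-ratio scaling and a log2 limit of 1.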

Additional observations from a re-analysis of the deposited data

Results flagged for a closer look

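For 2 members the response to ASNase had opposite signs in 2 strains, and each response was over 0.5 in size on the log2 scale. The difference of the 2 responses exceeded both 1.5 and the combined interval, which used upper bounds only. Because the table gives no value of single mice, none of these differences was tested. For Ugt2b37 the log2 change was 1.07 in Gcn2-/- and -1.54 in WT liver, a difference of 2.61, and it was -2.41 in Atf4-/- liver, a difference of -3.48 from Gcn2-/-. Its levels lay between 0.427 and 4.69 FPKM, near the limit of 3. For Sult2a5 the log2 change was -2.52 in Gcn2-/- and 0.88 in WT liver, a difference of -3.40, and -0.86 in Atf4-/- liver, a difference of -1.74 from WT, with levels between 0.745 and 10.4 FPKM. Sult1c2 met the same limits on the difference, at -3.60 for Gcn2-/- and -4.04 for Atf4-/- against WT, but its WT response was only 0.059.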

How the results depend on the processing

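No paired analysis was possible because the table holds no value of a single mouse, and for the same reason no mouse could be left out in turn. Of 76 alternative counts of members, 70 stayed within 1.5 times the reported count. The other 6 came from the condition on intervals. With no such condition 2 members in place of 1 were called after ASNase in WT, 11 in place of 5 in Gcn2-/- liver, 1 in place of 0 for Atf4-/- against WT under PBS, and 9 in place of 5 for Gcn2-/- against WT under ASNase. With the combined interval, built from upper bounds only, 2 were called in WT and 10 in Gcn2-/- liver after ASNase. The members gained in Gcn2-/- liver under the combined interval were Sult2a1, Sult3a1, Ugt2b5, Ugt2b36 and Ugt3a1. In Atf4-/- liver 12 members were called with no interval condition and 9 with the combined interval. Of the calls between 2 groups, the one lost under an alternative was that of Ugt2b37, higher in Gcn2-/- than WT under ASNase, at 1.37 with a pseudocount of 1. With that pseudocount 5 in place of 7 members differed in response between the knockouts. Over all genes, calls without the interval condition numbered 134 against 80 in WT, 607 against 340 in Gcn2-/- and 1160 against 699 in Atf4-/- liver after ASNase. They numbered 181 against 93 for Gcn2-/- and 180 against 101 for Atf4-/- compared with WT under PBS, 723 against 416 and 1276 against 790 under ASNase, and 581 against 298 between the knockouts. With no limit on low values 124 genes were called in WT. Of 672 log2 differences recomputed, 642 moved by less than the interval and 0 called ones changed sign. Width of the intervals and shared sequence limit the UGT1A genes, Sult5a1 and the Sult2a copies most.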
